A study of Homo sapiens with 4 samples.

Results

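The genes described here are 10 members of the YAP and TEAD transcriptional programme, namely the coactivators YAP1 and WWTR1 (which encodes TAZ), the DNA-binding partners TEAD1 and TEAD4, the target genes CCN1, CCN2, ANKRD1 and AMOTL2, and the regulators LATS2 and AJUBA. Their H3K27ac-associated loops were read from the loop lists of M14 cells, a human melanoma line. A loop was taken as a member's loop when an annotated transcript start of the gene lay inside one of its 5 kb anchors on hg19. By this rule 54 of the 42529 distinct loops in both lists were anchored at a member, and 9 of the 10 genes had at least 1 loop. ANKRD1 had none.

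HiChIP joins chromatin that is close in space and then enriches, with an antibody against the active mark H3K27ac, the ligation products that carry it. The labels gave 4 samples, 2 WT and 2 STAG2-KD. All cells carried a doxycycline-inducible shRNA that targets the cohesin subunit gene STAG2, as a selected stable population. The STAG2-KD cells received doxycycline for 5 days and the WT cells did not, so that knockdown and exposure to doxycycline cannot be told apart. The study asked how loss of STAG2 alters enhancer and promoter contacts. One loop list was analysed per group, with 27289 loops in WT and 25621 in STAG2-KD, on 22 chromosomes and over distances up to 1990 kb. With 1 list per group no difference had a replicate check and no test was made. STAG2 lies on the X chromosome, for which the lists held 0 loops, so the knockdown could not be checked in these data. Of 10 melanocyte lineage genes, 7 had a loop in WT and 6 in STAG2-KD (MITF 7 and 2 loops, PMEL 7 and 4, EDNRB 6 and 4, SOX10 4 and 4, MLANA 3 and 5, DCT 3 and 0, TYRP1 2 and 1), while TYR, TRPM1 and KIT had 0 in both lists. Of 4 epithelial genes, 1 had a loop (KRT14, 2 in each list). Among blood genes, CD3E had 1 and 3 loops, and PTPRC and SPI1 had 0 in both lists. What part cell state had in the counts below was not tested.

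In the Hippo pathway, a kinase cascade that ends in LATS1 and LATS2 phosphorylates YAP and TAZ and keeps them in the cytoplasm. When the cascade is off, YAP and TAZ enter the nucleus, bind TEAD factors and activate genes, often from distal enhancers where TEAD sites lie near sites of AP-1. CCN1 (CYR61), CCN2 (CTGF) and ANKRD1 are the usual readouts of this activity, and AMOTL2 and LATS2 are targets that also restrain YAP. AJUBA encodes a LIM protein that binds LATS kinases and limits them.

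CCN1, CCN2, ANKRD1 and AMOTL2 carry the TEAD recognition letters GGAATG, or their reverse complement, close to their starts, and they are shown here because the loops of CCN1, CCN2 and AMOTL2 end in these bins. The windows hold the 250 bases before the MANE Select start, the reference transcript of each gene, in the direction of the gene. They were read from the GRCh37 reference, the build of the loop lists, and not from M14 DNA. Capitals mark matches to GGAATG and, in ANKRD1, also 1 match to the AP-1 letters TGANTCA.

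CCN1, chr1:86046194-86046443, plus strand: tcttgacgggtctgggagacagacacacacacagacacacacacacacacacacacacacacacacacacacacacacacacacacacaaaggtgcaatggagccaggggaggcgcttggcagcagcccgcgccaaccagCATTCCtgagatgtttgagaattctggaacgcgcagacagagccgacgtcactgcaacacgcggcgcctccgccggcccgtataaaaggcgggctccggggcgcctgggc

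CCN2, chr6:132272513-132272762, minus strand: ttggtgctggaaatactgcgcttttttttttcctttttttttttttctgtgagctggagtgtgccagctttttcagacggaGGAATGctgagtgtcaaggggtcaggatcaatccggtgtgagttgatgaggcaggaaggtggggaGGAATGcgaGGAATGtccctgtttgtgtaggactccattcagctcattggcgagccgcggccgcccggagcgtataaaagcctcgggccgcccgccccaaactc

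ANKRD1, chr10:92680845-92681094, minus strand: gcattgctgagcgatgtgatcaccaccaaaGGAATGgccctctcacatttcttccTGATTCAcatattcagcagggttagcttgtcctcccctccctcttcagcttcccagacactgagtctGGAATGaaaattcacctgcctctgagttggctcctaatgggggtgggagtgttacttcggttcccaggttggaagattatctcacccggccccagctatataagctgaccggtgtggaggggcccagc

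In CCN1 the match began 110 bases before the start. In CCN2 there were 3 matches, beginning 169, 104 and 95 bases before the start, and in ANKRD1 there were 2, at 220 and 128. The windows of YAP1 and AMOTL2 overlap annotated exons, so only the match and its flanks are printed.

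AMOTL2, chr3:134093343-134093368, minus strand, match beginning 69 bases before the start: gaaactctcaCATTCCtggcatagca

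YAP1, chr11:101981006-101981031, plus strand, match beginning 162 bases before the start: ggagtgtgcaGGAATGtagcaacttg

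TEAD1 and TEAD4 each had 1 match, beginning 13 bases before the start in both, and WWTR1, LATS2 and AJUBA had none. In all, 7 of the 10 windows held GGAATG on either strand, and 9.72% of the same windows of 18069 protein-coding autosomal genes did. The members include genes known as TEAD targets, so this share describes the members and was not tested. A match to letters is not a bound site.

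Across the 10 genes, 26 loops were listed in WT and 41 in STAG2-KD. A member had a loop in 7 of 10 cases in WT, where 39.1% of 19222 protein-coding autosomal genes had one, and in 9 of 10 cases in STAG2-KD, where 36.8% did. CCN1 and LATS2 had loops in STAG2-KD alone, as did 12.3% of the 8563 genes with a loop in either list. Of the 9 members with a loop, 6 had more loops in STAG2-KD (34.4% of all genes with a loop did), 1 had more in WT (43.5%), and TEAD4 and CCN2 had equal counts. The median difference, STAG2-KD minus WT, was 2 loops over these 9 members (quartiles 0 and 3, range -4 to 6) and 0 over all 8563 genes (quartiles -1 and 1). A difference of at least 3 loops and at least 2-fold was reached towards STAG2-KD by WWTR1, AMOTL2 and CCN1, that is 3 of 9 members, and by 4.39% of all genes with a loop. AJUBA reached it towards WT, 1 of 9 members, as did 5.87% of all genes with a loop.

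Some of these directions turned on which starts were counted. YAP1 (12 and 14 loops) had 9 and 7 at its MANE Select start or at the 5′ end of its record, and TEAD1 (3 and 5) had 11 and 10 with starts up to 5 kb outside the anchor. WWTR1 (2 and 8) had 12 and 16 with starts up to 5 kb outside and 0 and 0 at the 5′ end of its record, and AJUBA (5 and 1) had 3 and 1 at its MANE Select start or the 5′ end of its record, so that both fell short of the rule there. LATS2 (0 and 1) had 0 and 3 with starts up to 5 kb outside, and met the rule under that definition alone. AMOTL2 and CCN1 kept their direction and met the rule under each start definition run. All starts of CCN1 lie in 1 bin, and the other bin with an AMOTL2 start held 0 loops in both lists. Only starts up to 5 kb outside the anchor could therefore have changed their counts.

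**Figure D1:**
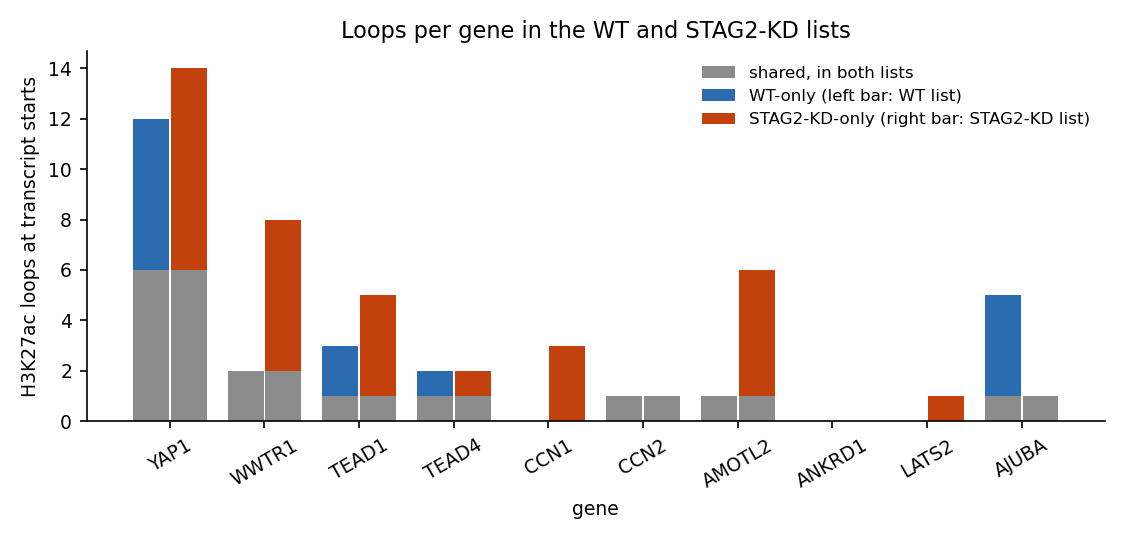
Loops at the transcript starts of each member gene (number of loops, bars from 0) in the WT list and in the STAG2-KD list, 1 list per group, so that no error bar can be drawn. YAP1 had the most loops in both lists (12 and 14), WWTR1, CCN1 and AMOTL2 had more in STAG2-KD, AJUBA had more in WT, and ANKRD1 had none.

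**Figure D2:**
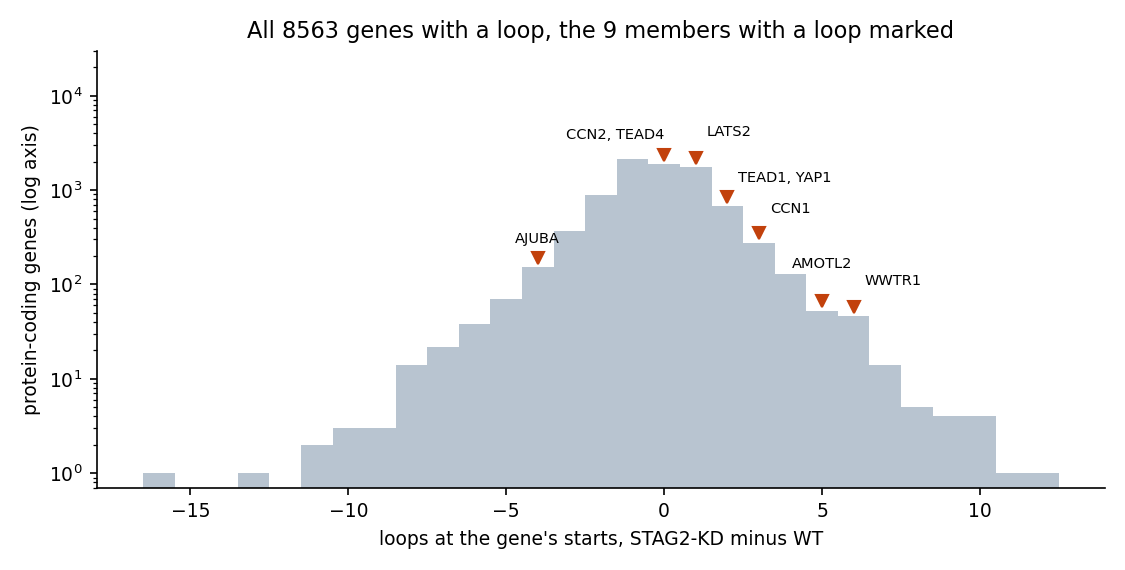
Number of protein-coding genes (log axis) by the difference in loops at their starts, STAG2-KD minus WT, for all 8563 genes with a loop; triangles mark the 9 members with a loop. WWTR1 (6), AMOTL2 (5) and CCN1 (3) lie to the right, AJUBA (-4) lies to the left, and the median of all genes is 0.

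Of the member loops, 13 were shared, meaning that the same 2 bins were joined in either list. They made up 50% of the WT loops (exact Clopper-Pearson 95% interval 29.9 to 70.1) and 31.7% of the STAG2-KD loops (18.1 to 48.1). Among all loops with a protein-coding start at an anchor, the shared loops were 41.2% of the 15175 listed in WT and 43.4% of the 14385 listed in STAG2-KD. Each member interval holds the corresponding value over all such loops. These intervals cover counting only, and neighbouring loops are not independent. A further 13 loops were WT-only, at YAP1, AJUBA, TEAD1 and TEAD4, and 28 were STAG2-KD-only, at YAP1, WWTR1, AMOTL2, TEAD1, CCN1, TEAD4 and LATS2.

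YAP1 (ENSG00000137693, chr11:101981178-102104155, plus strand) had 12 loops in WT, 14 in STAG2-KD and 6 common to the lists. It had starts in 4 bins. The bin of its MANE Select start, chr11:101980001-101985000, held 9 WT and 7 STAG2-KD loops. An internal start at chr11:102095001-102100000, near the 3′ end of the gene, held 4 and 6. Another internal start at chr11:102055001-102060000 held 0 in WT and 3 in STAG2-KD. The excess in STAG2-KD thus came from internal starts, and at the MANE Select start alone the order was the opposite.

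The shared YAP1 loops stayed within 115 kb. From the MANE Select bin they reached intronic bins of YAP1 at 25 and 60 kb and the internal start at 115 kb, so that both anchors of this last loop lay in the gene. From the internal start they ran 90 and 35 kb back into YAP1 introns and 20 kb out past the 3′ end. WT-only partners of the MANE Select bin lay at 95, 135, 145, 200, 440 and 490 kb downstream, all but the nearest beyond 115 kb. The one at 440 kb was an intergenic bin 18520 bp from MMP7, and the one at 490 kb, chr11:102470001-102475000, lay in an intron of MMP20. Both genes belong to the cluster of matrix metalloproteinase genes downstream of YAP1.

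The MMP20 bin was an anchor of 11 loops in WT and 13 in STAG2-KD, 5 of them shared. In STAG2-KD it was joined to YAP1 through the internal start at chr11:102055001-102060000 instead, over 415 kb. STAG2-KD-only partners of the MANE Select bin lay 100 kb upstream, in an intergenic bin 8208 bp from CEP126, and at 75, 90 and 130 kb downstream, the first of these being the internal start at 102055001. The internal starts at 102055001 and 102095001 each had a STAG2-KD-only loop back into a YAP1 intron, over 20 and 75 kb. From the 102095001 start a STAG2-KD-only loop ran 90 kb to the start of BIRC3, an inhibitor of apoptosis. The WT-only partner of the MANE Select bin at 200 kb, chr11:102180001-102185000, is the bin beside it and lies 3215 bp from BIRC3. Of the YAP1 private loops, the WT partners at 95 and 135 kb lay 1 bin from the STAG2-KD partners at 90 and 130 kb, so these loops differed by 5 kb at one anchor. The STAG2-KD-only loop over 20 kb also had a WT loop within 1 bin at both anchors.

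WWTR1 (ENSG00000018408, chr3:149235022-149454501, minus strand) had 2 loops in WT and 8 in STAG2-KD, and both WT loops were shared. With every annotated start counted, its difference towards STAG2-KD was the largest of the members, and with the MANE Select start alone (1 and 4 loops) that of AMOTL2 (1 and 6) was larger. Its MANE Select bin, chr3:149375001-149380000, held 1 and 4 loops, an upstream start at chr3:149420001-149425000 held 1 and 3, and an internal start at chr3:149290001-149295000 held 0 and 1. The shared loops joined the MANE Select bin to an intronic bin 20 kb downstream, and the upstream start to an intronic bin 125 kb downstream.

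The intronic bin at 20 kb, chr3:149355001-149360000, was one of the busiest partner bins, with 13 WT and 15 STAG2-KD loops, 7 of them shared. In STAG2-KD it also joined the upstream start, over 65 kb. Other STAG2-KD-only partners inside WWTR1 introns lay at 20, 85 and 105 kb. In WT the partner at 105 kb was joined to chr3:149370001-149375000, the bin beside the MANE Select bin. The other 2 STAG2-KD-only loops ended at the start of RNF13, which encodes a ubiquitin ligase, in chr3:149530001-149535000. They began at the MANE Select bin, 155 kb away, and at the internal start, 240 kb away. This RNF13 bin was an anchor of 6 loops in WT and 9 in STAG2-KD, so it was in use in both lists. In WT some of its partners lay inside the body of WWTR1, in bins that hold no start of the gene, and others lay outside WWTR1. A loop from it to a WWTR1 start was listed in STAG2-KD alone. The intronic partner bins at 85 and 105 kb were also anchors in both lists (4 and 7 loops, 7 and 8 loops).

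TEAD1 (ENSG00000187079, chr11:12695968-12966284, plus strand) had 3 WT loops and 5 STAG2-KD loops, including 1 shared loop, all from the bin of its MANE Select start. The shared loop reached a TEAD1 intron at 155 kb. WT-only partners lay at 80 and 95 kb, and STAG2-KD-only partners at 50, 120 and 215 kb, all in TEAD1 introns. In WT the partner at 50 kb was joined to chr11:12700001-12705000, the bin beside the MANE Select bin. The remaining STAG2-KD-only loop ran 265 kb upstream to chr11:12430001-12435000 in an intron of PARVA, which encodes the focal adhesion protein parvin alpha. That bin had 3 loops in WT, all shared, and 12 in STAG2-KD, the other 9 being STAG2-KD-only. The PARVA bin and the TEAD1 bin at 215 kb, which had 3 and 7 loops, were also the 2 partner bins of any member that held the 12-letter core of the CTCF motif. Over all anchors 4.13% held this core, and among the 47 partner bins that hold no start of the same gene 4.26% did.

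TEAD4 (ENSG00000197905, chr12:3068496-3149842, plus strand) had 2 loops in each list and 1 of them was shared. The shared partner, 80 kb upstream, held the starts of FOXM1, a cell-cycle transcription factor, RHNO1 and TULP3. The WT-only partner was the start of ITFG2, 145 kb upstream, and the STAG2-KD-only partner an exonic bin of TULP3, 25 kb upstream. All 3 partners of TEAD4 thus lay upstream and in other genes, whereas 6 of the 7 partners of TEAD1 lay in its own introns.

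**Figure D3:**
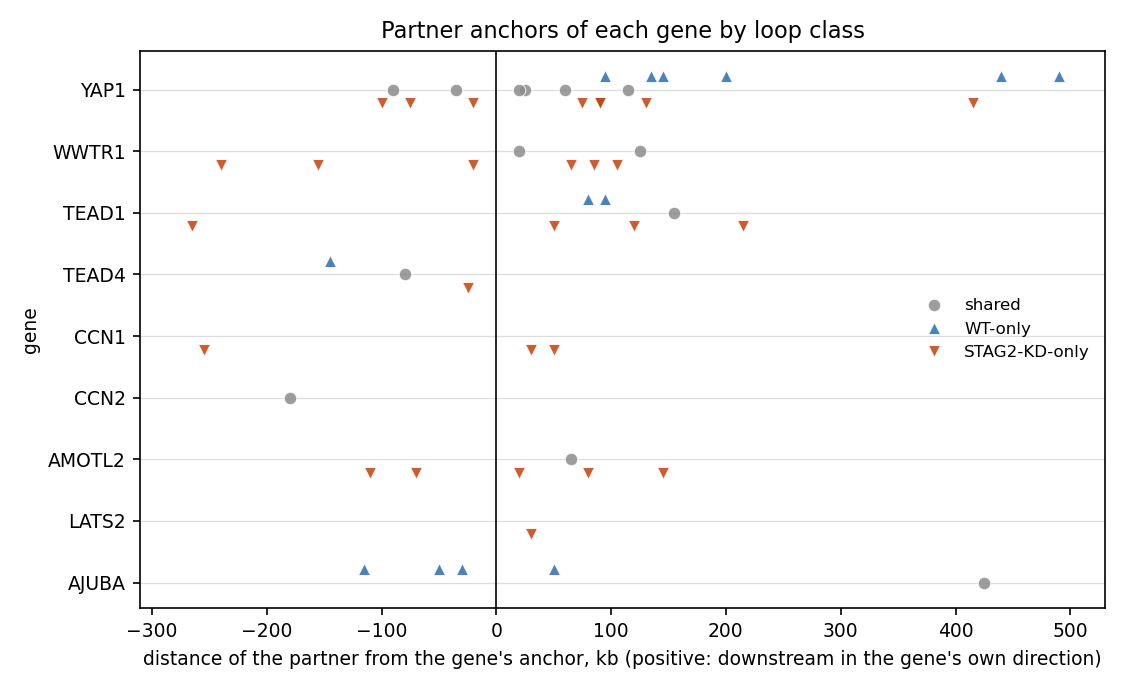
Distance from each member's anchor to its partner anchor in kb, positive in the direction of transcription, for shared loops (circles), WT-only loops (upward triangles) and STAG2-KD-only loops (downward triangles), 1 mark per loop. YAP1 alone has partners beyond 400 kb in WT-only loops (440 and 490 kb), AJUBA has a shared partner at 425 kb, and all 3 CCN1 loops are STAG2-KD-only.

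CCN1 (ENSG00000142871, chr1:86046444-86050272, plus strand), a secreted matrix protein, had 0 loops in WT and 3 in STAG2-KD. The partners lay 30 kb downstream in chr1:86075001-86080000, 50 kb downstream in chr1:86095001-86100000 and 255 kb upstream in chr1:85790001-85795000. The upstream bin overlaps an exon of DDAH1, which encodes an enzyme that breaks down asymmetric dimethylarginine. The downstream bins are intergenic, the nearest genes being CCN1 itself at 24729 bp and ZNHIT6 at 15100 bp. None of these partner bins was an anchor in WT, and each had 2 loops in STAG2-KD. The second loop of the DDAH1 bin ran 50 kb to the start of BCL10, and those of the downstream bins ended in a common bin, 40 and 20 kb away. Within 500 kb of the CCN1 start 4 WT loops and 13 STAG2-KD loops were listed, including 2 shared ones, so more loops were listed in STAG2-KD around the gene as well as at it.

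CCN2 (ENSG00000118523, chr6:132269316-132272512, minus strand), the paralog of CCN1, had 1 loop in each list, and it was the same loop. Its partner, chr6:132450001-132455000, lay 180 kb upstream at the start of the long noncoding RNA LINC01013. This bin had 5 loops in WT and 2 in STAG2-KD, both of them shared. Within 500 kb of the start there were 4 and 2 loops. The DDAH1 partner of CCN1 and the partner of CCN2 each held a TEAD and an AP-1 match within 50 bases. The downstream partners of CCN1 held no such pair. Pairs were found in 5 of the 47 partner bins that hold no start of the same gene, and these stretches are shown for that reason. This was 10.6%, against 10.2% of all 30601 anchors. The YAP1 bin at 102055001, a partner that holds an internal start, also had 1 pair and is outside this count. Capitals mark the TEAD and AP-1 letters on either strand, and the sequence is that of the plus strand.

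CCN1 partner, chr1:85791784-85791853, 27 bases between the matches: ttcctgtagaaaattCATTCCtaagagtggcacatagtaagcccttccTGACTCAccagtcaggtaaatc

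CCN2 partner, chr6:132450469-132450523, 12 bases between the matches: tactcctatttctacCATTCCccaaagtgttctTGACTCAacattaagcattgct

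YAP1 STAG2-KD-only partner, chr11:101881957-101882021, 22 bases between the matches: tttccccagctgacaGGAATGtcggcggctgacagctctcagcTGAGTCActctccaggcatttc

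YAP1 WT-only partner, chr11:102127101-102127152, 9 bases between the matches: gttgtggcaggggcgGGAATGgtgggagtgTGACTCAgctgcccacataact

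TEAD1 WT-only partner, chr11:12778077-12778138, 19 bases between the matches: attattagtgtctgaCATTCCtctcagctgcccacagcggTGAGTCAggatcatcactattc

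The DDAH1 bin of CCN1 held 3 such pairs, with 8 TEAD matches in all, and the other 4 bins held 1 pair each. The pairs thus lay in partners of STAG2-KD-only, WT-only and shared loops. GGAATG occurred in 45 of the 47 partner bins (95.7%) and in 93.7% of all anchors, so its presence in a 5 kb bin did not set the partners apart. TGANTCA occurred in 74.5% of these 47 partner bins and in 80.6% of all anchors.

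ANKRD1 (ENSG00000148677, chr10:92671853-92680844, minus strand), a muscle-enriched ankyrin repeat protein, had 0 loops in both lists. Within 500 kb of its start the lists held 1 and 3 loops, including 1 shared loop. Its promoter was the one member window that held a TEAD and an AP-1 match within 50 bases, which 0.238% of all promoter windows did. The letters were thus present at a start that anchored no listed loop.

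AMOTL2 (ENSG00000114019, chr3:134074189-134094321, minus strand), an angiomotin family protein that binds YAP, had 1 loop in WT and 6 in STAG2-KD. All left from the bin of its start, chr3:134090001-134095000. The WT loop was shared and reached an intergenic bin 65 kb downstream, which had 7 loops in each list, all 7 shared. The STAG2-KD-only partners lay 20, 80 and 145 kb downstream and 70 and 110 kb upstream. The partner at 145 kb, chr3:133945001-133950000 in an intron of RYK, a Wnt receptor, had 0 loops in WT and 5 in STAG2-KD. The bins at 20 and 70 kb also had none in WT and 1 each in STAG2-KD. The partner at 110 kb holds the starts of ANAPC13 and CEP63, and it had 7 loops in each list, 4 of them shared. The AMOTL2 loops in STAG2-KD therefore ended both in bins that WT used with other partners and in bins absent from the WT list. Within 500 kb there were 20 and 31 loops, with 13 shared.

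LATS2 (ENSG00000150457, chr13:21547175-21635725, minus strand), the kinase that phosphorylates YAP, had 0 loops in WT and 1 in STAG2-KD, which ran 30 kb into its own intron. That partner bin had 1 loop in each list. Around LATS2 the count was the other way, with 13 loops within 500 kb in WT and 6 in STAG2-KD.

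AJUBA (ENSG00000129474, chr14:23440386-23451760, minus strand) had 5 loops in WT and 1 in STAG2-KD, and that 1 was shared. Its shared partner lay 425 kb downstream at the start of the noncoding RNA LINC02332, and this was the longest shared loop of any member. Of the 4 WT-only loops, 3 ended at starts of other genes. They joined AJUBA to PRMT5, an arginine methyltransferase, 50 kb downstream, to C14orf93 at 30 kb upstream and to PSMB5, a proteasome subunit, at 50 kb upstream. The other WT-only loop reached an exonic bin of C14orf119 and CIROP at 115 kb upstream. The PRMT5 and C14orf93 loops left chr14:23445001-23450000, a bin with other AJUBA starts. The remaining AJUBA loops left the MANE Select bin, chr14:23450001-23455000. That bin also holds a start of the protein-coding gene ENSG00000259132, so its loops cannot be given to AJUBA alone. The PRMT5 bin had 3 loops in WT and 0 in STAG2-KD, the PSMB5 bin 4 and 3, and the bin at 115 kb 3 and 1. Within 500 kb of AJUBA the lists were of similar size, with 38 and 35 loops. AJUBA was thus the one member with more loops in WT and supplied 3 of the 5 WT loops of members that ended at a protein-coding start of another gene.

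**Figure D4:**
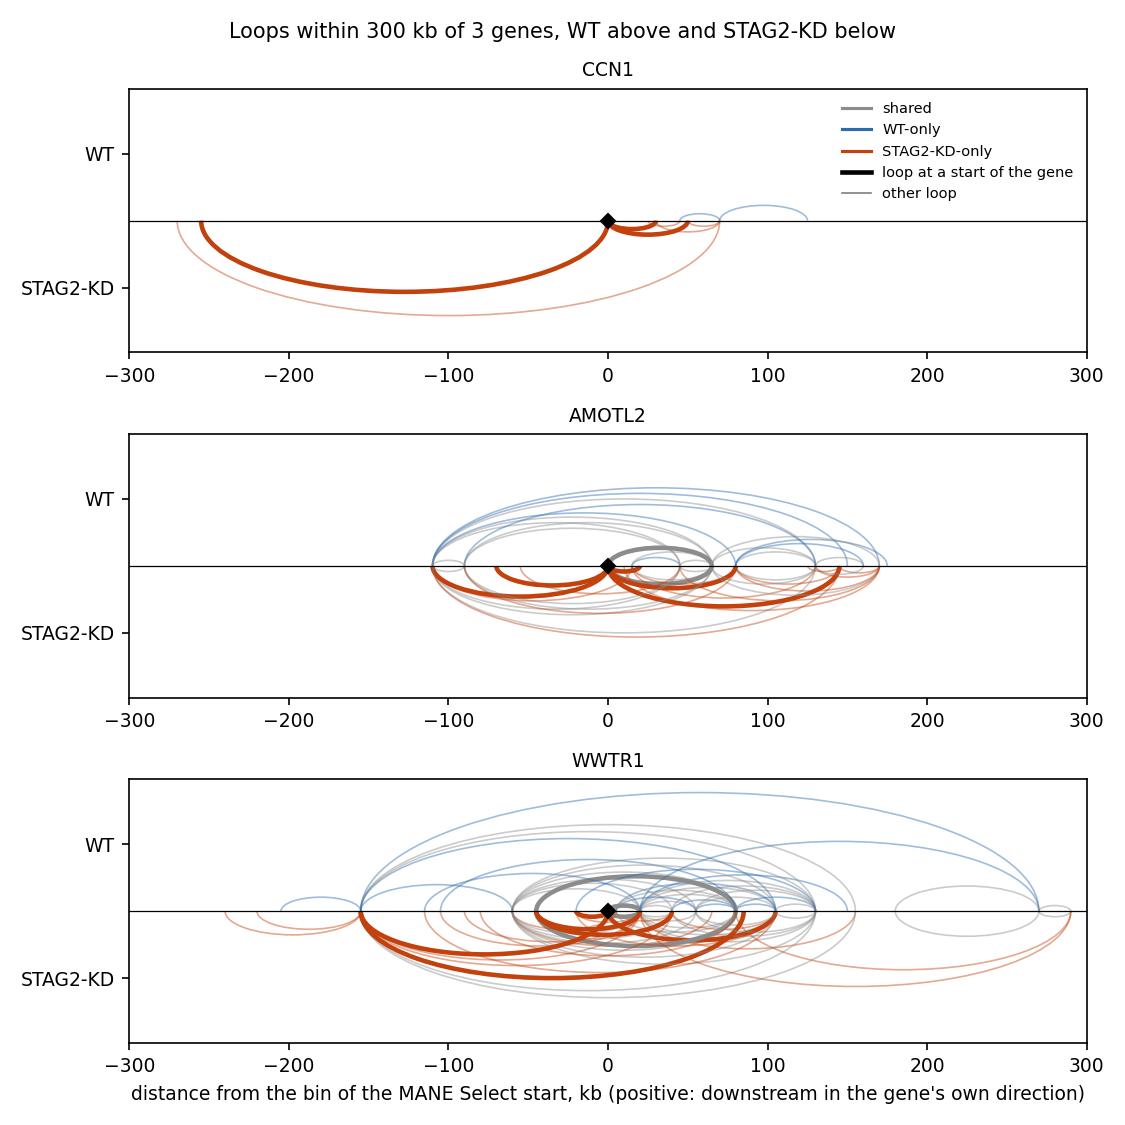
Loops with both anchors within 300 kb of the MANE Select start bin of CCN1, AMOTL2 and WWTR1, drawn as arcs above the line for WT and below it for STAG2-KD (x axis: distance in kb, positive in the direction of transcription; arc height has no unit). Thick arcs leave a start of the gene; at CCN1 all 3 are STAG2-KD-only, at AMOTL2 5 of 6 and at WWTR1 6 of 8.

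Member loops spanned a median of 95 kb in WT (range 20 to 490) and 85 kb in STAG2-KD (20 to 425), near the medians of 90 and 85 kb of all loops. Shared member loops had a median of 80 kb, STAG2-KD-only loops 87.5 kb (95% interval 65 to 120) and WT-only loops 115 kb (50 to 200). Without YAP1 the STAG2-KD-only median was 82.5 kb and the WT-only median 80 kb. Among all loops with a protein-coding start at an anchor, the shared median was 75 kb and the private median 100 kb in each list. A protein-coding start of another gene lay at the partner in 19.2% of WT loops (95% interval 6.55 to 39.4) and in 12.2% of STAG2-KD loops (4.08 to 26.2). The shared loops are in both sets, so the overlap of these intervals is no measure of a difference, which was not tested. The same share over all loops was not computed.

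Private loops differed in how much of them the other list held. Of the 13 WT-only loops, 8 joined bins that were both anchors in STAG2-KD, joined there to other partners. Among all 8928 WT-only loops with a protein-coding start at an anchor, 44.7% did so. Of the 28 STAG2-KD-only loops, 11 did so, 10 had only the member's bin as an anchor in WT, 3 had only the partner bin, and 4 had neither. Both bins were anchors in WT for 46.2% of all STAG2-KD-only loops with a protein-coding start at an anchor. The partner bin was an anchor in the other list for 69.2% of WT-only loops (38.6 to 90.9) and for 50% of STAG2-KD-only loops (30.6 to 69.4), and both intervals hold the shares over all such private loops, 62.8% and 63.4%. A loop of the other list lay within 1 bin at both anchors for 2 WT-only and 5 STAG2-KD-only loops, and for the remaining 11 and 23 none lay within 2 bins. Over all private loops with a protein-coding start at an anchor, the share with none within 2 bins was 81.6% in WT and 79.2% in STAG2-KD, so the members were near the lists as a whole.

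Other genes of the pathway were counted in the same way. Of 36 genes, 35 lie on autosomes and 26 of these had a loop in either list, 25 in WT and 24 in STAG2-KD. Of these 26, 14 had more loops in STAG2-KD (34.4% of all genes with a loop did), 9 had more in WT (43.5%), and 3 had equal counts. The difference of at least 3 loops and at least 2-fold was reached by 2 of these 26 genes in each direction. Among all genes with a loop, 4.39% reached it towards STAG2-KD and 5.87% towards WT. The pathway genes that reached it were all upstream genes, and this was not tested. PTPN14, a phosphatase that restrains YAP, had 1 and 7 loops, none of them shared, and STK4, the Hippo kinase MST1, had 2 and 5. WWC1, the scaffold KIBRA, had 4 and 1, and AMOTL1, the paralog of AMOTL2, had 3 and 0. AMOTL1 and AMOTL2 therefore differed in opposite directions.

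Among the TEAD paralogs and cofactors, VGLL4, which competes with YAP for TEAD, had 5 and 6 loops with 0 shared, TEAD2 had 1 and 1, and TEAD3 and VGLL3 had none. The 16 further YAP target genes had 42 loops in WT and 49 in STAG2-KD, 20 of them shared, and none reached the difference named above. Of the 14 with a loop, 7 had more loops in STAG2-KD (34.4% of all genes with a loop did) and 6 had more in WT (43.5%). RBMS3 had 7 and 10 loops, GADD45A 3 and 5, and CCDC80 2 and 0. The direction seen at CCN1 and AMOTL2 was thus shared by some genes of the target list and not by others, which was not tested.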

How the data were processed

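M14 cells were profiled by H3K27ac HiChIP in 2 WT and 2 STAG2-KD samples, grouped by their titles. The authors digested chromatin with MboI, aligned reads to hg19 with HiC-Pro, found peaks with hichip-peaks and loops with FitHiChIP; versions were not given in the sources used here. The deposited lists, 1 per group and filed under replicate 1, hold positions only (other values, with no count or score), so depth is unknown, a loop missing from a list may lie just under the caller's limit, and whether a list merges replicates is not stated. Anchors were read as 5 kb bins, printed counted from 1, and 1 STAG2-KD loop was off the grid. Transcript starts came from GENCODE release 44 lifted to GRCh37. A WT and a STAG2-KD loop were shared when both bins matched, and distance ran between anchor midpoints. Letter motifs were searched on both strands, and a TEAD and AP-1 pair had matches that shared no letters, with at most 50 bases between them. Python 3.11.15, numpy 2.4.6 and scipy 1.17.1 were used, and the counting recovered 8 of 8 planted values in simulated lists. Members, gene lists and the rule for a difference (at least 3 loops and 2-fold) were chosen with earlier results of these data known. All members were named, as were protein-coding genes with a start in a partner bin. The windows of 500 kb, the motif pairs, the distance to the nearest loop, the shares over all private loops and the MANE Select alternative were added after seeing the data. Alternatives changed the start definition, the tolerance for sharing, the distance limit, the list size, the merging of partners and the members included. The result of 1 blood marker gene is not reported here.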

Additional observations from a re-analysis of the deposited data

How the results depend on the processing

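No paired analysis was possible because 1 loop list stood for each group and no test was made, and for the same reason no replicate could be left out. Each member gene was left out in turn instead. The difference in member loops, STAG2-KD minus WT, stayed above 0 in all 17 settings, but most of these could not have ended it. No gene differed by more than 6 loops, so leaving out 1 gene could not bring 15 to 0. The limit of 1 Mb removed no member loop, and scaling WT down could only raise the difference. Only these 17 differences could be labelled reversed. Of 247 values under an alternative, single-gene counts not included, 234 moved by less than the limits set, 13 moved and 0 reversed. The cause of those that moved was not tested beyond how each alternative is built. With the 5′ end of the gene record as the only start, 26 loops remained in STAG2-KD, 18 of them STAG2-KD-only, and the difference was 7 instead of 15. With starts up to 5 kb outside the anchor, WT had 47 loops, 28 of them WT-only. With neighbouring partner bins merged the difference was 8, and with WT counts scaled for the smaller STAG2-KD list it was 16.6. A tolerance of 1 bin left 23 STAG2-KD-only loops and put the partner of 73.9% of these in the WT list. A tolerance of 2 bins left 23 STAG2-KD-only and 11 WT-only loops. It put the partner of 78.3% and 100% of these in the other list. The same shares over all private loops were not computed at these tolerances. Leaving out 1 gene gave 14 to 26 WT loops, 27 to 41 STAG2-KD loops and 7 to 13 WT-only loops, the lowest of each without YAP1, and a difference of 9 (without WWTR1) to 19 (without AJUBA).

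Among single genes, YAP1 had 9 WT and 7 STAG2-KD loops at its MANE Select start, added after seeing the data, and 9 and 9 with protein-coding starts. TEAD1 had 11 and 10 loops with starts up to 5 kb outside. WWTR1 had 12 and 16 there, 1 and 4 at its MANE Select start and 0 and 0 at the 5′ end of its record, so its difference fell short of 2-fold or had no loop to rest on in the first and last of these. AJUBA had 3 and 1 loops at its MANE Select start, short of a difference of 3. LATS2 had 0 and 3 loops with starts up to 5 kb outside, and met the rule there. CCN1 kept 0 and 3 loops under each start definition run, but all its starts lie in 1 bin.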
